A study of Mus musculus with 4 samples.

Results

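AP-1 and EGR immediate-early genes were followed in ATAC-seq summit lists of mouse haematopoietic stem cells (HSCs). The 10 genes, of 21887 protein-coding genes in the RefSeq table used, were Jun, Junb, Jund, Fos, Fosb, Fosl2, Atf3, Egr1, Ier2 and Btg2. They were chosen by the presence and scores of their summits in these same lists, so those values are given as a description, and every summit in the gene body or within 10 kb on either side was taken as theirs. ATAC-seq reads out open chromatin where the Tn5 transposase can insert into DNA, and a summit is the point of strongest signal in a called peak. All cells were bone marrow cells of male C57BL/6 mice, wild type and aged 8 weeks, flushed from pooled femora and tibiae, depleted of lineage-positive cells and sorted as LSK, CD34-, Flt3-, CD48- and Slam1+ HSCs. Surface CD93 divided that gate into CD93-positive HSCs (2 libraries) and CD93-negative HSCs (2 libraries). The labels do not tie a library to a mouse, so the spread within a group may be technical.

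AP-1 is a dimer of basic leucine zipper proteins, built from a JUN subunit (Jun, Junb, Jund) with another JUN or with a FOS subunit (Fos, Fosb, Fosl2) or an ATF protein such as Atf3. Egr1 encodes a zinc finger factor, Ier2 a nuclear protein and Btg2 an antiproliferative regulator of transcription and mRNA decay. Most of these genes are transcribed within minutes of growth factor, cytokine or stress signals, through factors such as SRF and CREB that are already in the cell, while Jund is expressed more steadily. In HSCs, Egr1 and Junb are known for restraining proliferation. The same genes are also known to be induced when tissues are dissociated and sorted. RNA was not measured here, and an open promoter is not a measure of transcription.

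The CD93-positive lists held 21 summits in replicate 1 and 711 in replicate 2, and the CD93-negative lists 7989 in replicate 1 and 2755 in replicate 2. Read depth is unknown. The score of a summit is a −log10 value (of p or of q) against its own library, so scores are compared within a list by rank, where rank 1 is the highest score, and scores of different lists printed side by side are not scaled to each other. A gene without a summit is one that the peak caller did not list at an unknown depth, not one shown to be closed. Among 13 HSC marker genes, including Kit, Ly6a, Slamf1 and Procr, no window summit was listed in 3 of the libraries, and CD93-negative replicate 1 had one at 1 of them, Ctnnal1, where 43.5% of all protein-coding genes had one. The defining markers of the labelled cell type were thus mostly without a summit. Cd93, by whose surface protein the groups were divided, is among the 13 and had no window summit in any library of either group. Among 20 markers of mature blood, endothelial and stromal cells, none had a window summit in either CD93-positive library, and 4 and 1 had one in replicates 1 and 2 of the CD93-negative group. Of all genes, 18.5% had one in CD93-negative replicate 2, 4.62% in CD93-positive replicate 2 and 0.0411% in CD93-positive replicate 1, so that in the CD93-positive lists few or none of 13 or 20 genes was the usual outcome.

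Open sites at the 10 immediate-early genes were listed mainly in CD93-negative HSCs. CD93-negative replicate 1 had a window summit at all 10 genes, against 43.5% of all protein-coding genes. CD93-negative replicate 2 had one at 5 genes, Jun, Jund, Fos, Egr1 and Btg2, against 18.5% of all genes. CD93-positive replicate 2 had one at Jund alone, or 1 of 10 against 4.62% of all genes, and CD93-positive replicate 1 had none, against 0.0411%. The 4 lists thus held 17, 5, 1 and 0 summits of these genes. The genes with a summit averaged 7.5 ± 3.54 (SD, n = 2) in the CD93-negative and 0.5 ± 0.707 (SD, n = 2) in the CD93-positive group, and the values of the groups did not overlap. Nor did the shares of all protein-coding genes, at 43.5% and 18.5% against 4.62% and 0.0411%, so the lack of overlap is not particular to these genes. Because the 10 genes were chosen with their counts known, no test was made of the counts.

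**Figure D1:**
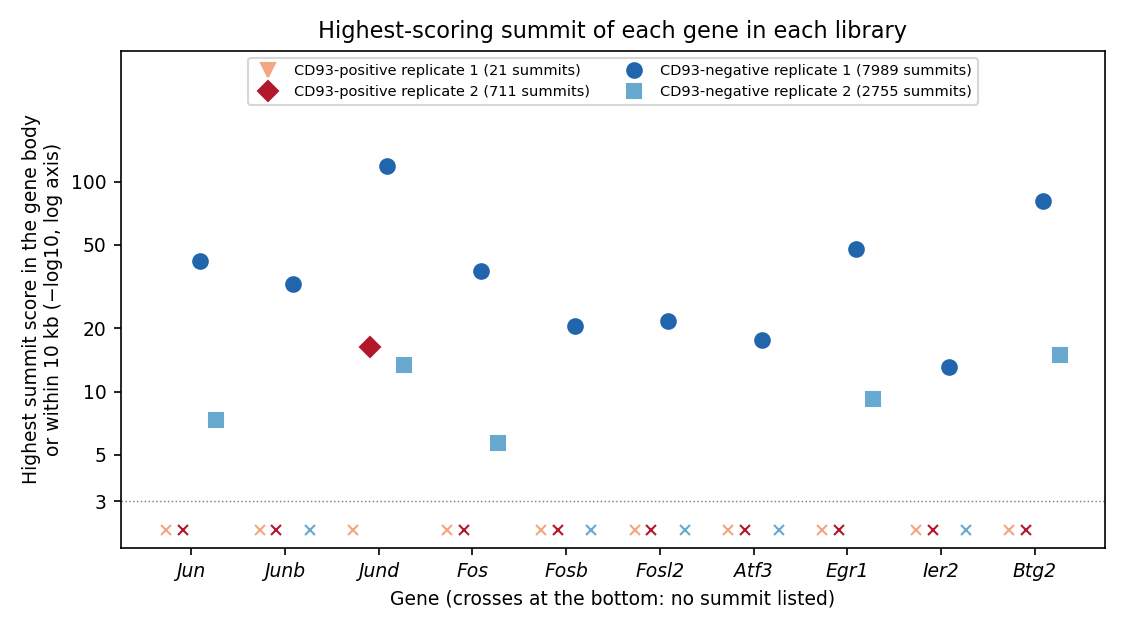
Highest summit score (−log10, log axis) in the gene body or within 10 kb for each of the 10 genes, with 1 marker per library and a cross where no summit was listed; the dotted line is at a score of 3, near the lowest score of every list. CD93-negative replicate 1 has a marker at all 10 genes, CD93-negative replicate 2 at 5, CD93-positive replicate 2 at Jund and CD93-positive replicate 1 at none.

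List length moved with these counts. CD93-positive replicate 1, with 21 summits, is too short to be set against the others at equal length. Among the 711 highest-scoring summits of each of the other 3 lists, Jund and Btg2 had a window summit in both CD93-negative libraries, and Jund had one in CD93-positive replicate 2. These were 2, 2 and 1 of the 10 genes, against 4.79%, 5.05% and 4.62% of all genes in CD93-negative replicates 1 and 2 and CD93-positive replicate 2. CD93-negative replicate 1, cut to its 2755 highest-scoring summits, covered 6 of the genes, against 18.4% of all genes. Those were the 5 genes of CD93-negative replicate 2 and Junb. Yield and cell type therefore cannot be told apart in the full counts.

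Jund, which encodes the most steadily expressed JUN subunit, was the gene found in the most libraries. Its summit scored 16.37 in CD93-positive replicate 2 (rank 61 of 711), 119.11 in CD93-negative replicate 1 (rank 24 of 7989) and 13.41 in CD93-negative replicate 2 (rank 697 of 2755), and it was not listed in CD93-positive replicate 1. All 3 summits lay inside the gene (gene ID 16478, chromosome 8, 70697739 to 70700616, plus strand), at positions 70698858, 70698840 and 70698724. They were 1119, 1101 and 985 bp downstream of the RefSeq start, within 134 bp of each other. Such a distance from the annotated start was uncommon. Of genes with a single annotated start and their best summit within 2000 bp of it, 0.610%, 1.07% and 1.0% in the same 3 libraries had it at least 900 bp downstream, bounds chosen after the Jund values were seen. No summit was listed at the annotated Jund start itself, whose 250 upstream bases had a GC content of 47.6%, against a median of 55.6% over 21263 promoters. Whether transcription of Jund begins at that annotated start in these cells was not tested.

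Btg2 had a site directly at its start that ranked second to that of Jund among these genes in CD93-negative replicate 1 and above it in CD93-negative replicate 2. The summit scored 80.69 in CD93-negative replicate 1 (rank 188) and 14.96 in CD93-negative replicate 2 (rank 526), and neither CD93-positive list held one. The positions, 134079169 and 134079109 on chromosome 1, lay 14 bp upstream and 46 bp downstream of the start of the gene (gene ID 12227, 134074865 to 134079155, minus strand). Among the 200 summits closest in rank to it in CD93-negative replicate 1, 62.5% had a partner (a summit within 250 bp) in CD93-positive replicate 2, and around its rank in CD93-negative replicate 2 the share was 34.5%. Around the rank of Btg2, having a partner was thus the more common outcome in CD93-negative replicate 1, and lacking one in CD93-negative replicate 2.

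Jun and Egr1 had a site at a gene end in both CD93-negative lists and in neither CD93-positive list. At Jun, the founding AP-1 subunit (gene ID 16476, chromosome 4, 95049036 to 95052222, minus strand), the summit scored 41.84 in CD93-negative replicate 1 (rank 1426) and 7.35 in replicate 2 (rank 2019). They lay 77 bp upstream and 194 bp downstream of the start, at 95052299 and 95052028, or 271 bp apart. The median offset between partners within 1000 bp in these 2 lists was 52.0 bp and the 90th percentile 190 bp, so the Jun summits lay farther apart than most. At Egr1 (gene ID 13653, chromosome 18, 34861207 to 34864956), the summit scored 47.64 (rank 1086) and 9.23 (rank 1512). Both lay outside the gene, 248 and 293 bp from its lower-coordinate end, at 34860959 and 34860914. Of the 200 summits closest in rank in CD93-negative replicate 1, 22.5% around Egr1 and 14.0% around Jun had a partner in CD93-positive replicate 2.

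Fos, the inducible partner of JUN proteins (gene ID 14281, chromosome 12, 85473890 to 85477274, plus strand), had a weak promoter site. Sites at a distance were weaker or stronger than it. At the promoter the summit scored 17.54 in CD93-negative replicate 1 (rank 4603) and 5.70 in CD93-negative replicate 2 (rank 2391), 37 and 113 bp downstream of the start at 85473927 and 85474003. CD93-negative replicate 1 alone listed a summit 5036 bp upstream of the start (score 12.81) and another 8817 bp beyond the 3′ end, at 85486091 (score 37.49, rank 1802). A further site lay outside the 10 kb window, 18524 and 18572 bp upstream of the start in CD93-negative replicates 1 and 2. It scored 60.12 (rank 547) at 85455366 and 24.17 (rank 72) at 85455318, above the promoter site in each list, and Fos was its nearest protein-coding gene. CD93-positive replicate 2 had no summit there, while 33.5% and 71.3% of the summits of like rank in CD93-negative replicates 1 and 2 had a partner in that list.

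The promoter sequences of Btg2, Jun and Fos are shown because summits of both CD93-negative libraries lay at or near the start. Jund is shown for contrast, since its summits lay downstream of these bases. Fosl2 is shown for its EGR motif, and its summits lay upstream of these bases. Each is the 250 bases before the RefSeq start (GRCm38.p6), 5′ to 3′ on the strand of the gene. They are chr1:134079156-134079405 for Btg2 and chr4:95052223-95052472 for Jun, both on the minus strand. On the plus strand they are chr12:85473640-85473889 for Fos, chr8:70697489-70697738 for Jund and chr5:32136222-32136471 for Fosl2. Capitals mark exact matches, on either strand, to the searched motifs. Those were the CArG box bound by SRF, the cyclic AMP response element TGACGTCA bound by CREB and ATF dimers, the AP-1 site TGANTCA, the EGR site GCGNGGGCG, the Sp1 site GGGCGG and the TATA box TATAAA.
Btg2: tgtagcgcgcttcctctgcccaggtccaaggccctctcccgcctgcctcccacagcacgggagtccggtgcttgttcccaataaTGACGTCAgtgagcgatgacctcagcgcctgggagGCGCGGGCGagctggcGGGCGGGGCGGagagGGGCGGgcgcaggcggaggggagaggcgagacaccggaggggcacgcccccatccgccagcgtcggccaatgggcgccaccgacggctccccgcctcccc
Jun: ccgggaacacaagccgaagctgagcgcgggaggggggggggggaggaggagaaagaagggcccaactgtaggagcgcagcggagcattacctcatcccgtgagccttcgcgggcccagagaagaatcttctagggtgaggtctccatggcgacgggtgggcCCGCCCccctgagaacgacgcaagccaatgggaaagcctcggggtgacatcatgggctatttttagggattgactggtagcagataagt
Fos: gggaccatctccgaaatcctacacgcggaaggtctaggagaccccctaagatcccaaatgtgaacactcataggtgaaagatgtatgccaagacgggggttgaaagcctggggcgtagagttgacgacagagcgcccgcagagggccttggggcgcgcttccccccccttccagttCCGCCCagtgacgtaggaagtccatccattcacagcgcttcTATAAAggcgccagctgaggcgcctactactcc
Jund: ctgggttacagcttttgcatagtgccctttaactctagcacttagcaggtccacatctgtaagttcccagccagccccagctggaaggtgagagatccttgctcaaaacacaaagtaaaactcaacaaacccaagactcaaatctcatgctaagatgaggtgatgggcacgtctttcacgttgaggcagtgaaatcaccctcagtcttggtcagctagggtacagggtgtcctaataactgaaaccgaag
Fosl2: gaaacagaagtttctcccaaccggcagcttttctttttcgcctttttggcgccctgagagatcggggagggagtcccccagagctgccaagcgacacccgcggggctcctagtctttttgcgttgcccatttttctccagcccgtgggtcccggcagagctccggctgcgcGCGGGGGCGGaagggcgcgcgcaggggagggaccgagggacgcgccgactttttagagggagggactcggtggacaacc

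Promoter entries were found for 8 of the 10 genes, which leaves out Egr1 and Ier2. The EGR site was present in 3 of the 8, Btg2, Fosl2 and Fosb, against 6.34% of all 21263 promoters of the same length. At Fosl2 and Fosb it overlapped an Sp1 match. The Sp1 site was in 6 of 8, against 42.6% of all promoters, with Junb and Jund lacking it. Both motifs have only G and C at their fixed bases, and the shares of all promoters were not matched for GC content. Btg2, Fosl2 and Fosb had GC contents of 73.2%, 64.4% and 68.8%, above the upper quartile of 64.0% over all promoters. Btg2 alone held the full cyclic AMP response element, at bases -166 to -159 from the start, against 1.92% of all promoters. Fos alone held a TATA box before the start, at -33 to -28, against 11.6%. No exact AP-1 site or CArG box was in these 250 bases of any of the 8, against 6.13% and 1.39% of all promoters. These matches describe letters and are not evidence of binding, and no match says only that these letters are not in this window.

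The other genes were covered by CD93-negative replicate 1 alone. Junb, a JUN subunit (gene ID 16477, chromosome 8, 84976909 to 84978748, minus strand), had a promoter summit at 84978723, 25 bp downstream of the start, with a score of 32.38 (rank 2324). It had another 305 bp beyond the 3′ end of the gene (score 18.26) and one 7186 bp upstream of the start (score 13.58). The upstream summit lay closer to Hook2, at 2842 bp, than to Junb, and was the only 1 of the 23 window summits with another protein-coding gene nearer. Around the rank of the Junb promoter, 42.0% of summits had a partner in CD93-negative replicate 2, whose nearest summit lay 58141 bp away.

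Fosb, Fosl2, Atf3 and Ier2 had sites of middle or low rank. Fosb, a FOS subunit (gene ID 14282, chromosome 7, 19302696 to 19310118, minus strand), had a summit 191 bp outside the gene at 19310309, with a score of 20.48 (rank 4018), and another inside it, with a score of 5.52 (rank 7704). Fosl2, also a FOS subunit (gene ID 14284, chromosome 5, 32136472 to 32157840), had summits 666 and 1413 bp upstream of its start, with scores of 21.62 (rank 3803) and 12.76. Atf3, a stress-induced ATF protein (gene ID 11910, chromosome 1, 191170296 to 191183333, minus strand), had a single summit 165 bp upstream of its start, with a score of 17.64 (rank 4593). Ier2 (gene ID 15936, chromosome 8, 84661331 to 84662852) had a summit 29 bp outside its upper-coordinate end, with a score of 13.04 (rank 5681), and another inside it, with a score of 7.46. Summits of like rank had a partner in CD93-negative replicate 2 in 26.0%, 23.0%, 27.0% and 12.5% of cases around the best sites of Fosb, Fosl2, Atf3 and Ier2, so that the absence of these 4 genes from that list was the usual outcome at their ranks.

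**Figure D2:**
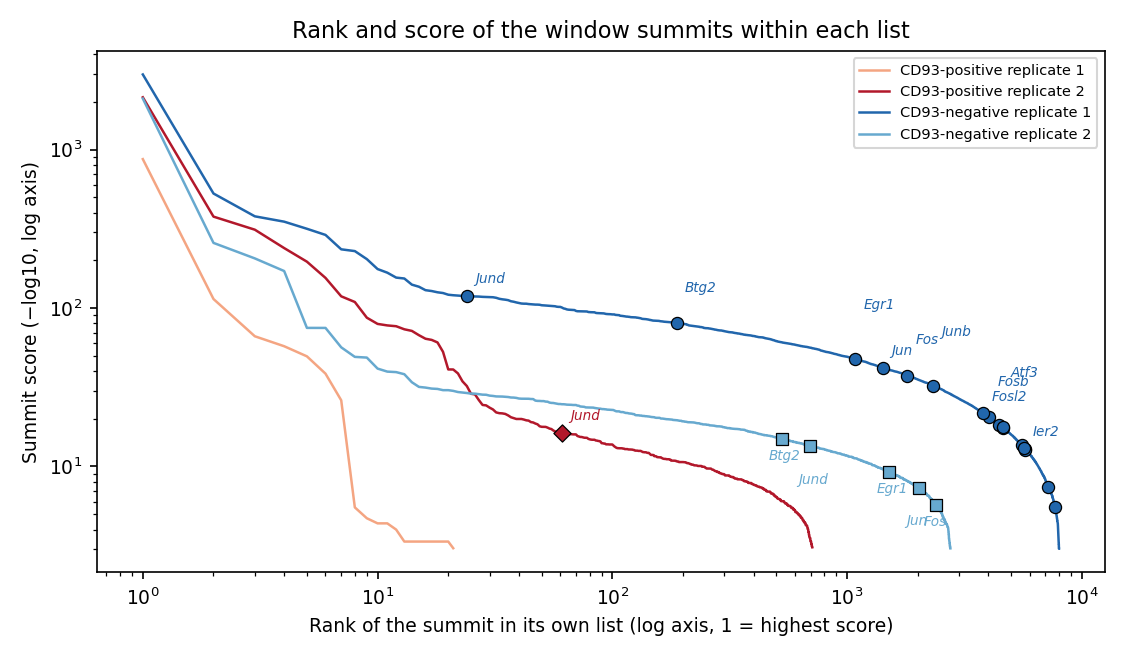
Summit score (−log10, log axis) against rank within each list (log axis), with lines for all summits of a library and outlined markers for the 23 window summits of the 10 genes, labelled at the highest-ranked summit of each gene. Jund is at rank 24 of CD93-negative replicate 1, rank 697 of CD93-negative replicate 2 and rank 61 of CD93-positive replicate 2, and Ier2, at rank 5681, is the lowest of the best sites in CD93-negative replicate 1.

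Several of the 10 genes had more than 1 site. In CD93-negative replicate 1, 5 of the 10 had at least 2 summits in the window and 2, Fos and Junb, had 3. Among all 9521 genes with a summit there, 23.9% had at least 2 and 3.51% at least 3, and among the 5216 of at most 25 kb in length the shares were 26.2% and 4.18%. The median best score was 34.9 for the 10 genes and 24.9 for all genes with a summit in that library, while in CD93-negative replicate 2 the 5 genes covered had a median of 9.23 against 10.2. The best sites ranged from 13.0 to 119 in the first list and from 5.70 to 15.0 in the second. Since the genes were chosen by the presence and scores of their summits, these numbers of summits and scores only describe the choice. The count for Junb takes in the upstream summit that lay nearer to Hook2.

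The place of the summits relative to the ends of the genes is given beside that at all genes. Of the 23 window summits, 10 were inside the gene and 13 outside, 16 lay within 1 kb of an end of the gene and 20 within 2 kb. Over all protein-coding genes, 61.2% of the 17655 pairs of a gene and a window summit lay within 1 kb of its ends. Of the 8 genes with a promoter entry, 4 had their best site in CD93-negative replicate 1 within 250 bp of the start, against 62.0% of the 6199 genes with a single start and a summit there. The best site of Fos, beyond its 3′ end, and that of Jund, inside the gene, lay more than 1000 bp from the start. With summits up to 500 bp apart joined, the 23 summits formed 17 sites, of which 5 were in more than 1 library, at Jun, Jund, Fos, Egr1 and Btg2. At the 250 bp used for partners elsewhere, the Jun summits would not join.

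Just beyond the 10 kb limit, a summit in CD93-negative replicate 1 lay 10048 bp outside Fosb (score 21.89, rank 3766), against 20.48 for the summit 191 bp outside the gene. The summit farthest out that still counted was the one 8817 bp beyond Fos. Between 10 and 25 kb there were 12 summits, of which 4 had one of the 10 genes as the nearest gene. These were the pair upstream of Fos, the one outside Fosb and one 13993 bp upstream of Btg2, which scored 42.43 (rank 1397) in CD93-negative replicate 1 and was not listed in CD93-negative replicate 2. The other 8 lay in or nearer to other genes.

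**Figure D3:**
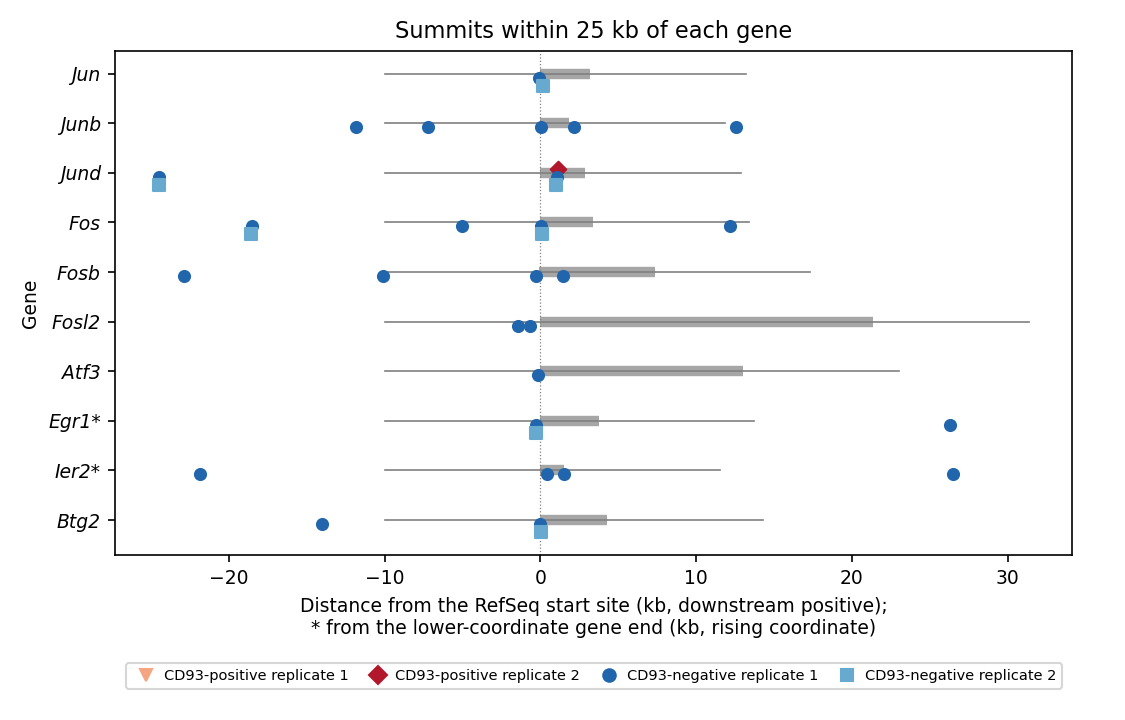
Distance of every summit within 25 kb of each gene from its RefSeq start (kb, downstream positive), or for Egr1 and Ier2 from the lower-coordinate gene end; thick bars are genes, thin lines the 10 kb windows and markers the summits of each library. At this scale the markers of CD93-negative replicates 1 and 2 lie together at Jun, Jund, Fos, Egr1 and Btg2 and about 18.5 kb upstream of Fos. They also do so 24488 and 24494 bp upstream of Jund, inside Lsm4. The single marker of CD93-positive replicate 2 is inside Jund.

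Sites at other genes of the pathway are given beside the shares of all genes, which were 43.5%, 18.5% and 4.62% in CD93-negative replicates 1 and 2 and CD93-positive replicate 2. Of 20 other AP-1, ATF, CREB and MAF genes, 14 had a window summit in CD93-negative replicate 1, 8 in CD93-negative replicate 2 and 1 in CD93-positive replicate 2, or 70.0%, 40.0% and 5.0%, the last near the share of all genes. That gene was Atf2, an AP-1 partner that responds to stress kinases, with scores of 67.6, 24.8 and 21.5 in these 3 libraries. Atf4, a factor of the integrated stress response, scored 61.4 and 10.9 in CD93-negative replicates 1 and 2 and was not listed in the CD93-positive libraries. At 711 summits a list, 3, 2 and 1 of the 20 were covered in CD93-negative replicates 1 and 2 and CD93-positive replicate 2. The shares of all genes were then 4.79%, 5.05% and 4.62%. Of 5 other EGR and NAB genes, 3 had a window summit in CD93-negative replicate 1, namely Egr2 and the corepressor genes Nab1 and Nab2, and none had one in the other libraries. These 3 were 60.0% of the list, against 43.5% of all genes. The windows can take in sites of neighbouring genes, as with the upstream Junb site above.

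Many of the other immediate-early genes also had sites. Of 36, 31 had a window summit in CD93-negative replicate 1, 16 in replicate 2 and 5 in CD93-positive replicate 2, or 86.1%, 44.4% and 13.9%, beside 43.5%, 18.5% and 4.62% of all genes. The 5 were Klf6, Btg1, Klf10, Klf2 and Gadd45a. Klf6, a zinc finger factor, scored 124 (rank 19) and 23.6 (rank 78) in the CD93-negative lists and 20.4 (rank 37) in CD93-positive replicate 2. Btg1, the paralogue of Btg2, scored 83.1, 17.6 and 10.6 in the same order, and so was listed where Btg2 was not. Rhob, a small GTPase gene, scored 53.8 and 22.9 in the CD93-negative lists alone, as did Nr4a1, a nuclear receptor gene, with 68.7 and 13.2. At 711 summits a list, 7, 5 and 5 of the 36 were covered in CD93-negative replicates 1 and 2 and CD93-positive replicate 2. The shares of all genes were then 4.79%, 5.05% and 4.62%.

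The upstream regulators, which include SRF cofactors, CREB coactivators and MAP kinases, had 20 of 24 genes with a window summit in CD93-negative replicate 1, 11 in replicate 2 and 3 in CD93-positive replicate 2. These were 83.3%, 45.8% and 12.5%, beside 43.5%, 18.5% and 4.62% of all genes. The 3 were Rps6ka5, a kinase of histone H3 and CREB (scores 91.7, 21.8 and 9.71 in CD93-negative replicates 1 and 2 and CD93-positive replicate 2), Mapk8, which encodes the JUN kinase JNK1 (45.2, 12.6 and 9.96), and Map2k7, a kinase of JNK (33.3, 6.89 and 7.66). Of the other genes of the JNK cascade on this list, Mapk9 and Map2k4 had summits in the CD93-negative lists alone and Map3k1 in none. At 711 summits a list, 2, 2 and 3 of the 24 were covered in CD93-negative replicates 1 and 2 and CD93-positive replicate 2. The shares of all genes were then 4.79%, 5.05% and 4.62%.

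Heat-shock and stress genes, which tissue dissociation is also known to induce, had the highest share of all the lists in each of the 3 longer libraries except for the 10 genes themselves in CD93-negative replicate 1. Of 20, 19 had a window summit in CD93-negative replicate 1, 13 in replicate 2 and 8 in CD93-positive replicate 2, beside 43.5%, 18.5% and 4.62% of all genes. Hspa8, a constitutive chaperone gene, scored 79.0, 23.6 and 12.5 in these libraries, and Hsp90aa1, the inducible HSP90 gene, 103, 20.7 and 16.7. At 711 summits a list, 5, 8 and 8 of the 20 were covered in CD93-negative replicates 1 and 2 and CD93-positive replicate 2, beside 4.79%, 5.05% and 4.62% of all genes, while the 10 immediate-early genes had 2, 2 and 1. Hspd1 and Hspe1 share a site between them and count as 2 genes. All 4 libraries went through the same lineage depletion and sort per the labels, no unsorted cells were analysed here, and the part of dissociation and sorting in these sites was not tested.

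**Figure D4:**
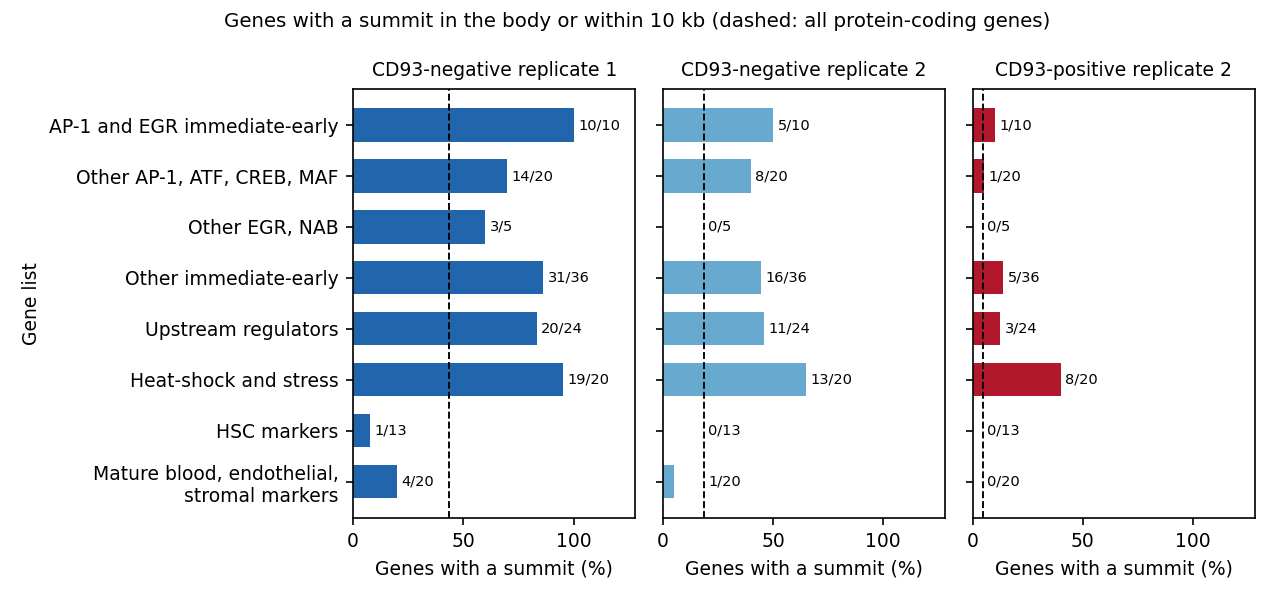
Share of the genes of each list with a summit in the gene body or within 10 kb (percent, bars, with counts beside them) in the 3 longer libraries; the dashed line is the share of all 21887 protein-coding genes. The 10 immediate-early genes have 10, 5 and 1 covered, the heat-shock and stress list 19, 13 and 8 of 20, and HSC markers 1, 0 and 0 of 13.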

How the data were processed

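Each deposited file lists the summits of 1 library, with a position and a score. The submitters' processing notes name Bowtie2, MACS2 and the build mm10, and the sources used here do not give versions, read filters or the calling threshold. The score deposited by the authors is a −log10 value, of p or of q, and which one is not stated. No summit was filtered out. Positions are 1-based. Gene IDs and positions were read from RefSeq's GRCm38.p6 gene table (mm10 is the same assembly), and start sites, strands and promoter sequences from the RefSeq promoter table of the same build, in which each entry holds 250 bases before and 50 after the start. Of 148 entries in the gene lists, all 148 matched, 1 of them by an older symbol, and 1 further planned marker is not reported here. The 10 genes and the lists were chosen with earlier results of these data known, and comparisons are descriptive. Named were the 10 genes; from each other list up to 6 genes open in both CD93-negative libraries and CD93-positive replicate 2, and up to 6 open in both CD93-negative libraries only, by the lower CD93-negative score, of which the text gives examples; genes nearer than one of the 10 to a window summit; and the 3 genes most like the most widely found of the 10. Other examples were chosen after their values were seen. Summits of like rank are the 100 on either side in the list, and partners lie within 250 bp. Libraries are numbered by their titles. The numbers inside the deposited summit names are 2 and 3 for the libraries titled CD93-positive replicates 1 and 2, and 1 and 3 for those titled CD93-negative replicates 1 and 2, so a replicate number printed here rests on the titles. They were not used to pair libraries. Python 3.11.15, numpy 2.4.6, pandas 2.3.3 and matplotlib 3.10.9 were used, and the window assignment was tested on simulated summits.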

Additional observations from a re-analysis of the deposited data

How the results depend on the processing

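The counts depend on the length of the lists and, in part, on the window. With lists cut to the length of the longer CD93-positive list, the genes with a summit were 2 in each CD93-negative library, with 2 summits each, and the difference between group means was 1.5, which still sets the 21 summits of CD93-positive replicate 1 against 711. Cut to the shorter CD93-negative list, CD93-negative replicate 1 had 6 genes and 6 summits. With the gene body only, it had 5 genes and 5 summits. With 1 kb around either gene end, it had 11 summits and CD93-positive replicate 2 had 0 genes and 0 summits, since the Jund site lies farther inside the gene. With 25 kb on either side, CD93-negative replicate 1 had 27 summits. With a score of at least 10, CD93-negative replicate 2 had 2 genes and 2 summits. Leaving out each library in turn gave differences of 4.5 (without CD93-negative replicate 1) to 9.5, against 7.0. The nearest-gene rule, 2.5 kb windows, a score of at least 5 and merging summits within 500 bp left each of these counts within 1.5 times its value. Of 252 alternative counts for the other lists, 207 stayed within 1.5 times, 5 were higher and 40 lower. No paired analysis was possible because the counts come from no test and the numbers do not pair the libraries. Read depth is unknown, so a missing summit sets no limit on accessibility.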

Other observations

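Of 902 genes with a window summit in all 3 longer lists, those closest to Jund in the rank of their best site, as a percentage of each list, were Iqcn, Fam76a and Gpbp1. Iqcn, the neighbour of Jund, has the same summits in its window and so a distance of 0 percentage points. Fam76a lay at 1.17 points, with scores of 103 and 13.2 in CD93-negative replicates 1 and 2 and 16.9 in CD93-positive replicate 2, against 119, 13.4 and 16.4 for Jund. Gpbp1, a GC-rich promoter binding protein gene, lay at 4.74 points, with 77.4, 13.4 and 14.0. The likeness is over 3 libraries and describes rank only.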
